A study of Arabidopsis thaliana with 12 samples.

Results

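The 50 genes described here encode proteins of the cytosolic ribosome of Arabidopsis and were taken by locus name from a table of 33557 loci. Of these members, 36 encode proteins of the large subunit (60S, 16 families) and 14 encode proteins of the small subunit (40S, 7 families), and 20 of the 23 families are represented by more than 1 paralog. Plant families of ribosomal proteins hold several genes each, and other paralogs of the same and of other families were kept as separate lists. RNA-seq measured transcripts in leaves of 5-week-old plants of 4 groups, with 3 libraries each. The groups were 35S:HSFA1b plants exposed to 37 °C for 30 min (HS), 35S:HSFA1b plants kept at 23 °C (NS), WT plants under the same HS and WT plants under NS. All plants were of the Columbia ecotype (Col-0), and the 35S:HSFA1b plants were of a single line that expresses HSFA1b fused to RFP from the constitutive 35S promoter, in addition to the endogenous gene. The humidity was raised during HS so that the vapour pressure deficit stayed constant. The labels give replicate numbers without naming the plants behind each library, so the p-values below measure the spread between these libraries.

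The ribosome translates mRNA into protein. Its small subunit binds and decodes the mRNA, whereas its large subunit joins the amino acids and releases the growing chain through an exit tunnel. Each subunit is built on rRNA in the nucleolus and finished in the cytosol, and the genes of its proteins are among the most highly transcribed genes of growing plant tissue. HSFA1b, a transcription factor of the heat shock clade A1, activates genes of heat shock proteins, and the comparisons below ask how HS and the constitutive supply of HSFA1b are accompanied by the transcripts of ribosomal protein genes.

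The level of HSFA1b was 330 to 364 FPKM (fragments per kb of transcript, relative to the depth of the library as the authors normalized it) in 35S:HSFA1b HS columns and 430 to 624 FPKM in 35S:HSFA1b NS columns, against 6.17 to 7.31 FPKM in WT HS and 3.10 to 4.79 FPKM in WT NS columns, as the sample titles require. The columns of the table were not alike in their most abundant transcripts. The 10 most abundant loci held 4.13% to 4.62% of all FPKM in the 3 columns of 35S:HSFA1b HS and in columns 0 and 1 of 35S:HSFA1b NS, against 10.6% to 13.4% in the WT columns, while column 2 of 35S:HSFA1b NS held 10.8%. LHCB1.3, a light-harvesting protein of photosystem II and a leaf marker, had 4095 to 5341 FPKM in those 5 columns, 21190 FPKM in column 2 of 35S:HSFA1b NS and 24700 to 30640 FPKM in WT columns. The sample descriptions begin with a number that is shared by all WT libraries and 1 library of 35S:HSFA1b NS, and with another number in the remaining 35S:HSFA1b libraries. Under HS this number and the genotype cannot be told apart, and columns could not be matched to single libraries. Under NS the number and the genotype overlap in part. The number and HS overlap in part within 35S:HSFA1b, and through this the number also enters the difference of HS responses. All 6 leaf markers were present in every group and summed to 17180 to 19480 FPKM (35S:HSFA1b HS), 15490 to 57840 FPKM (35S:HSFA1b NS), 64320 to 80420 FPKM (WT HS) and 64640 to 81080 FPKM (WT NS). The 5 root markers summed to at most 3.30 FPKM, the 5 flower markers to at most 0.712 FPKM and the 5 seed markers to at most 4.34 FPKM in any column.

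The promoters of the genes on which the results turn are shown first, because ribosomal protein genes of plants are known for short elements shared just upstream of their transcription start. The 200 bases upstream of each annotated start were read from the RefSeq assembly TAIR10.1, 5′ to 3′ along the gene, and letters are capital where the telo box (AAACCCTA), a site II element (TGGGCC or TGGGCT), the motif TATAAA of the TATA box or a heat shock element of 3 units (the form GAANNTTC or TTCNNGAA extended by a further unit) was matched, on either strand and with overlapping matches kept. RPS9B and RPS8A had the highest levels and were among the largest differences between genotypes, RPL3B had the largest increase under HS, and RPL10A, RPL10B and RPL10C are paralogs that differed from each other.
RPS9B (AT5G15200), chr5:4936430-4936629, minus strand: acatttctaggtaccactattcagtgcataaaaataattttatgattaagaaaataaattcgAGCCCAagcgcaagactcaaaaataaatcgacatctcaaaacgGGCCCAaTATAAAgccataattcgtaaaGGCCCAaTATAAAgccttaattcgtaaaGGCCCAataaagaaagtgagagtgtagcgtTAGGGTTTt
RPS8A (AT5G20290), chr5:6853107-6853306, minus strand: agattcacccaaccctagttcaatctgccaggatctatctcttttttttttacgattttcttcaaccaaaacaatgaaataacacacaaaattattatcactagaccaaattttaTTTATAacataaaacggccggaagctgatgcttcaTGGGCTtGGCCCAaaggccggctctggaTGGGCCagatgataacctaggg
RPL3B (AT1G61580), chr1:22723153-22723352, minus strand: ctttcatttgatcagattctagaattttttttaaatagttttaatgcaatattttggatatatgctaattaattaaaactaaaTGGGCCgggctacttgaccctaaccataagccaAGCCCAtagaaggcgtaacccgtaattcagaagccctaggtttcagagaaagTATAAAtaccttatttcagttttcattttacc
RPL10A (AT1G14320), chr1:4887914-4888113, plus strand: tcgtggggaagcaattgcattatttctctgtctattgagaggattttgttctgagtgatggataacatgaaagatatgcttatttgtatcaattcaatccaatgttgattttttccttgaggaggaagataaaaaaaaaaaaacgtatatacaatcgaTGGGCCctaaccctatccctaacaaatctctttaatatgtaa
RPL10B (AT1G26910), chr1:9321450-9321649, plus strand: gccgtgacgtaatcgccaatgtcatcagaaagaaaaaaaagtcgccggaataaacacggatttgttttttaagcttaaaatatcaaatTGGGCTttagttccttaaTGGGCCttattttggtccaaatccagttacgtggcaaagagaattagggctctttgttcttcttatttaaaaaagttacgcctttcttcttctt
RPL10C (AT1G66580), chr1:24838890-24839089, plus strand: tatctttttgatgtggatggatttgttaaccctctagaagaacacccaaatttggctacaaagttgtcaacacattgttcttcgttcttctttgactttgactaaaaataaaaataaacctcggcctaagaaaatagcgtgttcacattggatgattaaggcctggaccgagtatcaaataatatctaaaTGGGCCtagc

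A site II element lay in 39 of the 50 member promoters (78.0%), and 28 members held more than 1. The share was 17.9% of the 26686 promoters of protein-coding loci in the table. It was 22.2% of the 17239 among them with a mean of at least 1 FPKM, called tested promoters here. RPS9B held 4 such elements, RPS8A 3, RPL3B and RPL10B 2 each, and RPL10A and RPL10C 1 each. The telo box lay in 9 member promoters (18%), against 3.70% of all and 2.82% of tested promoters, and RPS9B is the only one of the 6 sequences above that holds it. A TATA box lay in 48.0% of member promoters, against 41.4% of all and 39.2% of tested promoters. The heat shock element of 3 units lay in 0 of the 50 member promoters, against 0.292% of all and 0.36% of tested promoters. Its short form of 2 units (GAANNTTC or TTCNNGAA) lay in 16.0%, against 12.9% of all and of tested promoters. RPL3B is the only one of the 6 sequences above that holds the short form (1 match), which is not in capitals there. Among the 167 other genes of cytosolic ribosomal proteins, 62.9% held a site II element and 17.4% a telo box. These counts describe letters in a window of 200 bases and say nothing of what binds there.

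The members covered a 41.0-fold range of levels. RPS8A, a core protein of the small subunit, had the highest mean over the 12 columns (552 FPKM), followed by RPS9B (505 FPKM), whose protein lies near the mRNA entry site and bears on decoding accuracy, and by RPL3A (468 FPKM), whose protein reaches towards the peptidyl transferase centre. The lowest means were those of RPS9C (13.5 FPKM), RPL3B (16.2 FPKM) and RPL10B (16.6 FPKM), each a paralog of a highly expressed member. In all, 41 members had a mean above 100 FPKM, and the median member (255 FPKM) lay above 97.0% of the 17720 loci with a mean of at least 1 FPKM. Low FPKM values fall into steps, whose commonest size put 1 fragment per kb of transcript at 0.0398 to 0.0981 FPKM, depending on the column. By this estimate the least covered member of a column rested on 110 to 349 fragments, which is a counting error of 5.4% to 9.6%, and the median member on 2874 to 7284 fragments. The lowest members were therefore the least precise, and column 0 of 35S:HSFA1b HS had both the fewest fragments of any column and the lowest median. The members lie on all 5 chromosomes. RPL6C and RPL6B are tandem neighbours on the minus strand of chromosome 1 with 208 bases between them, and RPL9B and RPL9C lie 10677 bases apart on the plus strand of the same chromosome.

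Summed over the 50 members, the level was 11270, 11470 and 11240 FPKM in 35S:HSFA1b HS, 9416, 8412 and 9379 FPKM in 35S:HSFA1b NS, 15680, 14680 and 13970 FPKM in WT HS and 11840, 12650 and 11990 FPKM in WT NS. WT HS was the highest group and 35S:HSFA1b NS the lowest, and the columns of these 2 groups overlapped with no other group. The mean sum of WT HS was 1.22 times that of WT NS, and that of 35S:HSFA1b HS 1.25 times that of 35S:HSFA1b NS. The mean sum of 35S:HSFA1b was 0.746 times that of WT under NS and 0.767 times that of WT under HS. A sum cannot tell fewer cells of a type from less RNA per cell. Expressed as a share of all FPKM in the column, the order was another one. The members took 1.46% ± 0.02 in 35S:HSFA1b HS, 1.3% ± 0.181 in 35S:HSFA1b NS, 1.19% ± 0.0954 in WT HS and 1.34% ± 0.0862 in WT NS (SD, n = 3 each). The column totals themselves ran between 632800 and 1280000 FPKM and were highest in WT HS. The ratio of 60S to 40S members was 2.29 ± 0.0306 in 35S:HSFA1b HS, 2.24 ± 0.0819 in 35S:HSFA1b NS, 2.17 ± 0.01 in WT HS and 2.17 ± 0.0208 in WT NS, and in column 2 of 35S:HSFA1b NS it was 2.15, as in the WT columns (2.15 to 2.19).

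**Figure D1:**
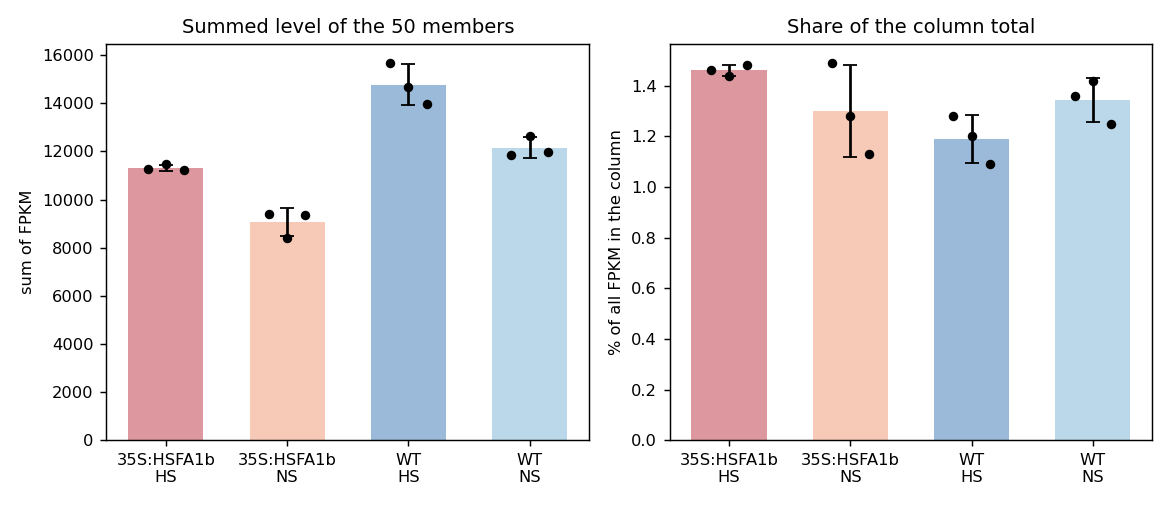
Summed level of the 50 members in FPKM (left) and the same sum as a percentage of all FPKM in the column (right), by group. Points are the 3 columns of a group and bars the mean with its SD; the sum is highest in WT HS, whereas the share of the column total is lowest there (1.19%).

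HS in WT plants was accompanied by higher levels of 24 of the 50 members (threshold, adjusted p = 0.05), and no member fell. At an unadjusted p below 0.05 in limma, 30 were higher and 1 lower. Counts at this threshold, here and below, stand without the share of all tested loci. The members share their columns, so these counts are description only. Among all 17710 tested loci 44.5% were called, 23.7% higher and 20.8% lower. Under the authors' scaling the share of members called higher thus exceeded the background. The median log2 fold change of the members was 0.27, against 0.02 for all tested loci. The increases included 17 of the 36 genes of the 60S subunit and 7 of the 14 genes of the 40S subunit. Of the 5 scalings that were run, quantile normalization turned this direction, with 1 member called higher and 10 lower and a median of -0.23 for members and -0.12 for all loci. After centring the columns on loci at the members' level, 12 were higher and 1 lower, with a median of 0.15, and with length and GC trends taken out 8 were higher and 1 lower (0.13). Shares of all tested loci called under these other scalings are not given here or below. The excess over the background is therefore stated for the authors' scaling only. The 4 members with the largest increases came from 3 families, RPL3, RPL9 and RPS9. RPL9 lies close to the site on the large subunit where translation factors bind.

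RPL3B had 19.3, 15.1 and 22.3 FPKM in WT HS, against 12, 13.3 and 10.7 FPKM in WT NS (log2 fold change 0.64 ± 0.171 SE, adjusted p = 0.0155). RPL9C had 180, 171 and 167 FPKM in WT HS, against 122, 115 and 110.2 FPKM in WT NS (0.58 ± 0.0768, adjusted p = 0.000584). In both genes every HS column was above every NS column, although the WT HS columns of RPL3B were themselves far apart. RPL9B, the neighbour of RPL9C, had 120.3, 115 and 109 FPKM in WT HS, against 84.3, 84.3 and 73.3 FPKM in WT NS (0.51 ± 0.0891, adjusted p = 0.00217). RPS9B had 758, 729 and 716 FPKM in WT HS, against 502, 542 and 517 FPKM in WT NS (0.50 ± 0.113, adjusted p = 0.00774). RPS9B, at a far higher level than the others, was the 1 of these 4 whose sign turned under quantile normalization (-0.26, adjusted p = 0.0596). Without column 2 of WT NS, RPL3B passed no longer (adjusted p = 0.0598), and 13 members were called in all.

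The WT HS columns lay above the WT NS columns without overlap for 36 of the 50 members, against 28.3% of all tested loci, and below for 1 member, RPL10B, against 26.1%. With 3 columns against 3, an exact two-sided permutation test of a single gene cannot give a p below 0.1. RPL10B, of the RPL10 family whose protein joins the large subunit late, in the cytosol, had 17.02, 13.99 and 11.2 FPKM in WT HS, against 18.2, 19.7 and 18.4 FPKM in WT NS, and its decrease did not pass the test (-0.43 ± 0.167, adjusted p = 0.0619). Its paralogs RPL10A and RPL10C were among the 24 members that rose, by 0.39 ± 0.0926 and 0.36 ± 0.0749 on the log2 scale (adjusted p = 0.00976 and 0.00534).

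**Figure D2:**
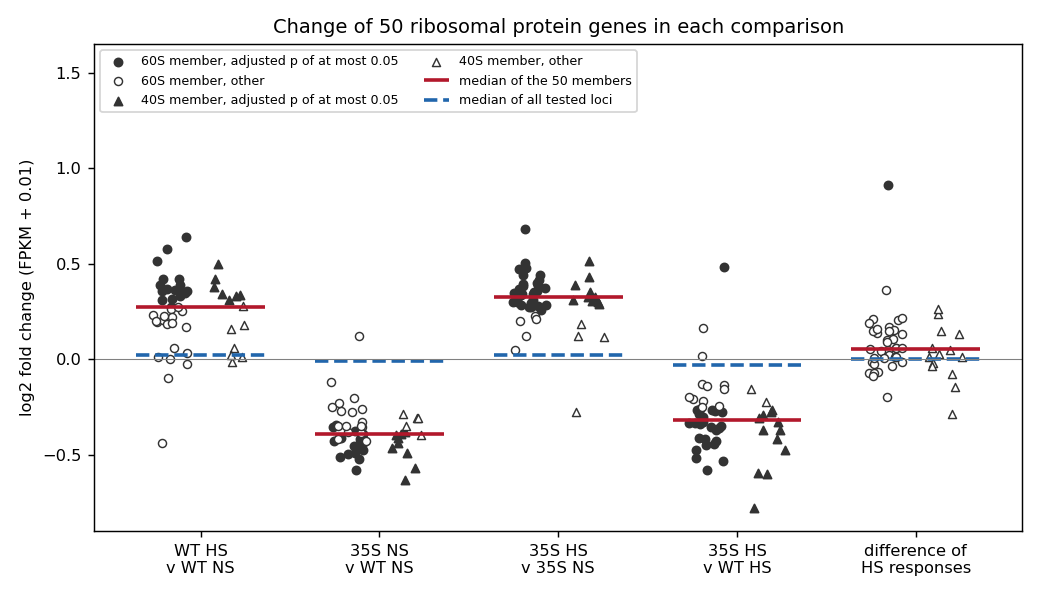
Log2 fold change of each member (circles, 60S; triangles, 40S) in 4 comparisons and in the difference of the HS responses (35S:HSFA1b minus WT), with filled symbols at an adjusted p of at most 0.05. The red line is the median of the 50 members and the dashed blue line that of all tested loci; medians are 0.27 and 0.33 in the HS comparisons and -0.39 and -0.32 in the genotype comparisons, under the authors' scaling (quantile normalization turns the first and the last of these 4, to -0.23 and 0.05).

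Under NS, 35S:HSFA1b plants had lower levels of 28 of the 50 members than WT plants, and no member was higher. At an unadjusted p below 0.05 in limma, 45 were lower and 0 higher. Of all 17710 tested loci 9.77% were called, 3.65% lower and 6.12% higher. The median log2 fold change of members was -0.39, against -0.01 for all loci. The decreases took in 19 of the 36 genes of the 60S subunit and 9 of the 14 genes of the 40S subunit, and 49 of the 50 members had a negative fold change. The median was negative under all 5 scalings that were run, from -0.39 to -0.24, although quantile normalization left only 2 members called lower. All 3 columns of 35S:HSFA1b NS showed it. Against the mean of WT NS, the median of the members was -0.33 in column 0, -0.51 in column 1 and -0.37 in column 2, and 48, 50 and 49 members were negative. Column 2 was the one of these whose LHCB1.3 level came nearest to the WT columns, although it stayed below them. The 10 most abundant loci took 6.38% ± 3.83 of all FPKM in 35S:HSFA1b NS and 12.7% ± 0.833 in WT NS (SD, n = 3 each). The part of this share in the result was not tested.

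The 4 largest decreases belonged to RPS9B, RPL3A, RPS8A and RPL18B. RPS9B had 322, 301 and 389 FPKM in 35S:HSFA1b NS, against 502, 542 and 517 FPKM in WT NS (log2 fold change -0.63 ± 0.113 SE, adjusted p = 0.0108). RPL3A had 338, 314 and 362 FPKM in 35S:HSFA1b NS, against 494, 529 and 492 FPKM in WT NS (-0.58 ± 0.102, adjusted p = 0.0102). The columns of the 2 groups were far apart in both genes, and in RPS9B the column with the highest 35S:HSFA1b NS value was column 2. RPS8A had 393, 363 and 434 FPKM in 35S:HSFA1b NS, against 568, 611 and 578 FPKM in WT NS (-0.57 ± 0.102, adjusted p = 0.0112). RPL18B, a protein of the large subunit, had 298, 268 and 282 FPKM in 35S:HSFA1b NS, against 386, 427 and 403 FPKM in WT NS (-0.52 ± 0.0879, adjusted p = 0.00821). The paralog of RPL3A, RPL3B, which is expressed at a low level, had 15.1, 10.99 and 13.3 FPKM in 35S:HSFA1b NS, against 12, 13.3 and 10.7 FPKM in WT NS. Its fold change was the 1 positive value among members (0.12 ± 0.171, adjusted p = 0.684), and its groups overlapped.

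The columns of 35S:HSFA1b NS lay below those of WT NS without overlap for 45 of the 50 members, against 19.8% of all tested loci, and above for 0, against 16.9%. The number of members called depended on single columns more than their size did. Without column 1 of 35S:HSFA1b NS or without column 1 of WT NS, 1 member was called lower, without column 2 of WT NS 5 were, and without column 1 of WT HS, which only adds to the estimate of the spread, 17 were, whereas the median stayed between -0.44 and -0.33 over all columns left out. Where only 1 member was left, most of the 4 largest decreases named above had lost their call. Without column 2 of 35S:HSFA1b NS, 26 members were called and the median was -0.42. With column 2 as the only 35S:HSFA1b NS column, its spread being taken from the other groups, the median was -0.37 and 0 members were called by limma at an adjusted p of at most 0.05 (30 lower and 0 higher at an unadjusted p below 0.05).

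In 35S:HSFA1b plants, HS was accompanied by higher levels of 41 of the 50 members, and 0 fell, against 22.6% of 17720 tested loci called higher and 19.7% called lower. At an unadjusted p below 0.05 in limma, 44 were higher and 0 lower. These included 31 of the 36 genes of the 60S subunit and 10 of the 14 genes of the 40S subunit. The median was 0.33 for members and 0.02 for all loci. The number in the sample descriptions overlaps in part with HS here, and its part in the result was not tested. After quantile normalization the median of the members was 0.06 and 4 were called higher, and after centring on loci at their level it was 0.23 and 22 were called higher. With column 2 as the only column of 35S:HSFA1b NS, 17 were called and the median was 0.28. The 4 largest increases were in RPL3B, RPS5B, RPL9C and RPL10B.

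RPL3B had 20.0, 21.8 and 21.0 FPKM in 35S:HSFA1b HS, against 15.1, 10.99 and 13.3 FPKM in 35S:HSFA1b NS (log2 fold change 0.68 ± 0.154 SE, adjusted p = 0.00484). RPS5B, a protein of the head of the small subunit near the exit site for tRNA, had 172, 186 and 174 FPKM in 35S:HSFA1b HS, against 141, 113 and 119 FPKM in 35S:HSFA1b NS (0.52 ± 0.0911, adjusted p = 0.00117). In each gene all HS columns exceeded all NS columns, and the HS columns lay closer together. RPL9C had 149, 148 and 131 FPKM in 35S:HSFA1b HS, against 105, 97.5 and 98.4 FPKM in 35S:HSFA1b NS (0.51 ± 0.0758, adjusted p = 0.000397). RPL10B had 19.0, 20.5 and 18.8 FPKM in 35S:HSFA1b HS, against 16.0, 11.6 and 14.5 FPKM in 35S:HSFA1b NS (0.48 ± 0.151, adjusted p = 0.0261), and its call was lost when either scaling by length and GC content or centring at the members' level was applied, and without any one of 5 of the 6 columns compared (adjusted p = 0.0514 to 0.105). The columns of 35S:HSFA1b HS lay above those of 35S:HSFA1b NS without overlap for 44 of the 50 members, against 31.3% of all loci, and below for 0, against 27.6%.

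Under HS, 36 members were lower in 35S:HSFA1b than in WT plants and 1, RPL10B, was higher, against 16.8% of 17720 loci called lower and 12.1% called higher. The median was -0.32 for members and -0.03 for all loci. This comparison shares its columns with the HS comparisons of each genotype, and the genotype cannot be told apart here from the number in the sample descriptions. The share of FPKM in the 10 most abundant loci was 4.36% ± 0.246 in 35S:HSFA1b HS and 10.7% ± 0.231 in WT HS (SD, n = 3 each), and its part in the result was not tested. Quantile normalization turned the median of the members to 0.05, with 1 called higher and 1 lower, whereas taking out trends with transcript length and GC content left 1 higher and 16 lower (median -0.21). Without column 2 of 35S:HSFA1b HS 22 members were called, and without column 0 of WT HS 24.

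RPS9B had 433, 430.0 and 423 FPKM in 35S:HSFA1b HS, against 758, 729 and 716 FPKM in WT HS (log2 fold change -0.78 ± 0.0981 SE, adjusted p = 0.000236). RPS8A had 484, 489 and 487 FPKM in 35S:HSFA1b HS, against 778, 726 and 711 FPKM in WT HS (-0.60 ± 0.0873, adjusted p = 0.000557). Both decreases were several times the spread within the groups, but under quantile normalization the value of RPS8A was 0.08 and that of RPS9B -0.15, and neither passed (adjusted p = 0.574 and 0.244). RPS9C had 10.3, 9.08 and 11.5 FPKM in 35S:HSFA1b HS, against 17.7, 14.03 and 15 FPKM in WT HS (-0.60 ± 0.146, adjusted p = 0.0113). RPL8A, a protein of the peptidyl transferase region, had 354, 386 and 370 FPKM in 35S:HSFA1b HS, against 579, 543 and 535 FPKM in WT HS (-0.58 ± 0.0917, adjusted p = 0.000969). RPL8A passed no longer with length and GC trends taken out (-0.21, adjusted p = 0.0693).

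The RPL10 family held both directions in this comparison. RPL10A, known in Arabidopsis also as SAC52, had 426, 427 and 429 FPKM in 35S:HSFA1b HS, against 630, 599 and 552 FPKM in WT HS (-0.47 ± 0.0791, adjusted p = 0.00141). RPL10C, known as SAG24, a gene associated with leaf senescence, had 172, 170 and 161 FPKM in 35S:HSFA1b HS, against 225, 213 and 238 FPKM in WT HS (-0.43 ± 0.0656, adjusted p = 0.000797). RPL10B had 19.0, 20.5 and 18.8 FPKM in 35S:HSFA1b HS, against 17.02, 13.99 and 11.2 FPKM in WT HS (0.48 ± 0.151, adjusted p = 0.0341). All 3 paralogs had columns that did not overlap between genotypes, RPL10B in the opposite direction to the others. Its columns of 35S:HSFA1b HS were close to each other, and those of WT HS spread widely. Its call was lost in a fit of the 2 groups alone (adjusted p = 0.0754) and without any one of 5 of the 6 columns compared (adjusted p = 0.0709 to 0.101), and the value of RPL10A was 0.09 under quantile normalization. For the members as a whole, the columns of 35S:HSFA1b HS lay below those of WT HS without overlap for 42, against 23.8% of all loci, and above for 1, against 19.4%.

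**Figure D3:**
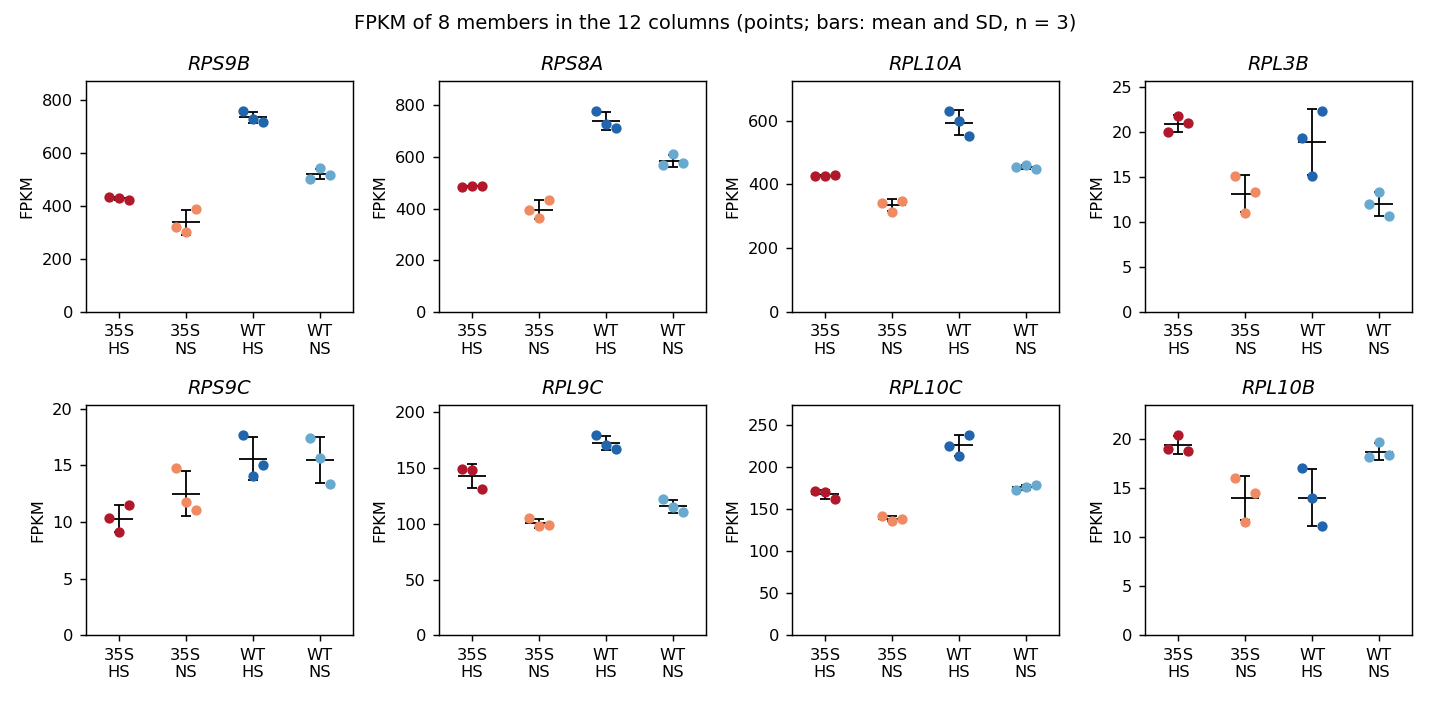
FPKM of 8 members in the 12 columns (points), with the mean and SD of each group (n = 3) and the 35S:HSFA1b groups on the left. RPS9B, RPS8A, RPL10A and RPL10C are highest in WT HS; RPL10B is lowest in 35S:HSFA1b NS and WT HS.

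The HS response differed between the genotypes in 1 member, RPL10B, at an adjusted p of at most 0.05, against 3.94% of loci with a higher and 7.97% with a lower response in 35S:HSFA1b. The number in the sample descriptions overlaps in part with this difference as well, and its part was not tested. The response of RPL10B in 35S:HSFA1b minus that in WT was 0.91 ± 0.213 (SE) on the log2 scale (adjusted p = 0.0213). RPL10B was the gene described above that was higher with HS in all 35S:HSFA1b columns and lower in all WT columns. It no longer passed without column 1 of 35S:HSFA1b HS (0.87, adjusted p = 0.0541), without column 1 of WT NS (0.87, adjusted p = 0.0567) or with column 2 as the only 35S:HSFA1b NS column (0.85, adjusted p = 0.0829). The median of the differences over the 50 members was 0.05, against 0.00 for all loci, and 36 members had a positive value. Quantile normalization moved this median to 0.27 and called 3 members higher. The remaining 49 differences did not pass, with values from -0.29 to 0.36, which does not show that the responses were alike.

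Ratios of paralogs within a family do not depend on a scale factor of the column. RPS9B made up 97.7% ± 0.29, 96.4% ± 0.81, 97.9% ± 0.2 and 97.1% ± 0.43 of the 2 RPS9 members, and RPL3A 95.2% ± 0.15, 96.3% ± 0.48, 97.0% ± 0.72 and 97.7% ± 0.17 of the 2 RPL3 members, in 35S:HSFA1b HS, 35S:HSFA1b NS, WT HS and WT NS (SD, n = 3 each). RPL3B thus took its highest share of the RPL3 pair in 35S:HSFA1b HS (4.75% ± 0.15) and its lowest in WT NS (2.32% ± 0.17). RPL10B took 3.16% ± 0.13 of the RPL10 members in 35S:HSFA1b HS, 2.87% ± 0.34 in 35S:HSFA1b NS, 1.68% ± 0.28 in WT HS and 2.89% ± 0.096 in WT NS. The mean share of RPL10B was thus lower in WT HS than in each of the other groups. The largest shift of a share with HS in WT was that of RPL8A, with 83.1% ± 0.32 of the 2 RPL8 members in WT HS and 77.4% ± 0.86 in WT NS, and the largest between genotypes under NS that of RPL7B, with 59.2% ± 1.0 of the 3 RPL7 members in 35S:HSFA1b NS and 63.9% ± 0.84 in WT NS. These last 2 were chosen after their values were seen.

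The size of the change followed the level of the member in the genotype comparisons. Across the 50 members, which share their 12 columns and are not independent, the log2 fold change and the log2 mean FPKM gave Pearson's r = -0.656 (Spearman's rho = -0.689) for 35S:HSFA1b NS against WT NS and r = -0.645 (rho = -0.691) for 35S:HSFA1b HS against WT HS. For HS the values were r = 0.337 (rho = 0.292) in WT and r = 0.126 (rho = 0.00331) in 35S:HSFA1b. The median change of all tested loci also varied with level. For 35S:HSFA1b NS against WT NS, the 405 loci with a mean of 200 to 400 FPKM had a median of -0.36, and the 22 members among them -0.41. The 656 loci with a mean of 100 to 200 FPKM had a median of -0.18, and the 13 members among them -0.34. For WT HS against WT NS, the medians were 0.25 for the 405 loci and 0.24 for the 22 members, and 0.24 for the 656 loci and 0.28 for the 13 members. For 35S:HSFA1b HS against WT HS, the medians were -0.35 for the 400 loci and -0.35 for the 23 members with 200 to 400 FPKM. In other classes of WT HS against WT NS the members had the higher median, with 0.27 for 5 members and 0.19 for all 1372 loci of 50 to 100 FPKM, and 0.376 for 6 members and 0.295 for all 150 loci of 400 to 800 FPKM, while 4 members of 10 to 50 FPKM had -0.01, against 0.06 for all 7018 loci. No test was made of members against loci of a like level.

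**Figure D4:**
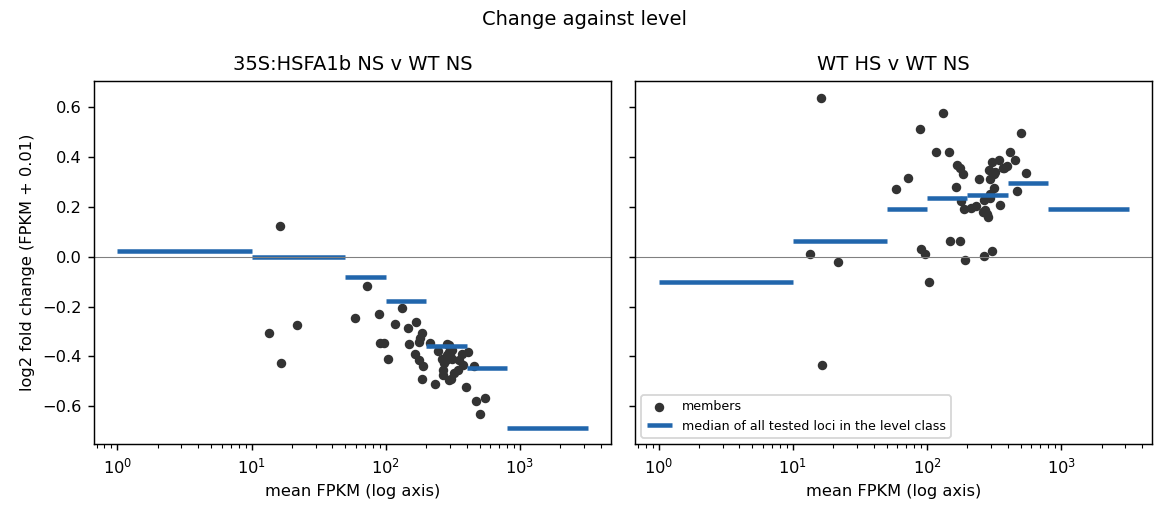
Log2 fold change against mean FPKM on a log axis, for 35S:HSFA1b NS against WT NS (left) and WT HS against WT NS (right). Points are the 50 members and blue lines the median of all tested loci in 7 classes of level; between 200 and 400 FPKM the lines lie at -0.36 and 0.25.

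Other genes of the translation machinery were counted in lists for comparison. Of all tested loci, 23.7% were called higher and 20.8% lower in WT HS against WT NS, and 6.12% and 3.65% in 35S:HSFA1b NS against WT NS. These shares were 22.6% and 19.7% in 35S:HSFA1b HS against 35S:HSFA1b NS, and 12.1% and 16.8% in 35S:HSFA1b HS against WT HS. The 155 tested genes among 167 other genes of cytosolic ribosomal proteins resembled the members, with 53 higher and 7 lower in WT HS than in WT NS (median 0.21), 0 higher and 80 lower in 35S:HSFA1b NS than in WT NS (-0.40), 99 higher and 3 lower in 35S:HSFA1b HS than in 35S:HSFA1b NS (0.30) and 0 higher and 91 lower in 35S:HSFA1b HS than in WT HS (-0.32). At an unadjusted p below 0.05 in limma, 0 were higher and 132 lower in 35S:HSFA1b NS than in WT NS, and 1 higher and 109 lower in 35S:HSFA1b HS than in WT HS. Under quantile normalization the median of these 155 turned to -0.24 in WT HS (1 higher, 54 lower) and to 0.03 between genotypes under HS (2 higher, 4 lower), while it was 0.06 with HS in 35S:HSFA1b (8 higher, 7 lower) and -0.28 between genotypes under NS (21 lower). Of the 12 tested acidic P-stalk proteins, which recruit translation factors to the ribosome, 7 rose and 0 fell in WT HS (median 0.41, or -0.06 under quantile normalization; 10 higher and 0 lower at an unadjusted p below 0.05), the largest increase being that of RPP0A, with 7.03 ± 0.5614 FPKM in WT HS and 4.28 ± 0.4019 FPKM in WT NS (0.72 ± 0.171 SE, adjusted p = 0.00957). RPP0A rose in 35S:HSFA1b HS as well, with 7.45 ± 0.3773 FPKM, against 3.95 ± 0.9277 FPKM in 35S:HSFA1b NS (0.94 ± 0.154, adjusted p = 0.000719). Among the other 60S and 40S proteins, the largest increases in WT HS were those of RPL23B (0.55 ± 0.152, adjusted p = 0.0172) and RPS7A (0.47 ± 0.0804, adjusted p = 0.00197), and under quantile normalization neither passed (0.17 and 0.06). Not every gene of the cytosolic ribosome rose with HS. RPL27A fell in WT, with 5.81 ± 0.553 FPKM in WT HS and 12.2 ± 1.22 FPKM in WT NS (-1.07 ± 0.166, adjusted p = 0.00126). RPS8B, a paralog of RPS8A, fell in WT, with 0.624 ± 0.0447 FPKM in WT HS and 2.17 ± 0.613 FPKM in WT NS (-1.75 ± 0.245, adjusted p = 0.000751).

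Plastid ribosomal proteins, which serve translation in the chloroplast, had a median of 0.25 in WT HS, where 0 of 31 passed in limma in either direction (4 higher and 0 lower at an unadjusted p below 0.05), and of -0.54 in 35S:HSFA1b NS, where 10 fell and 0 rose (29 lower and 0 higher unadjusted). Quantile normalization turned the median in WT HS to -0.30, with 6 lower, and left 0 called in 35S:HSFA1b NS (-0.35). Their columns of 35S:HSFA1b NS lay below those of WT NS without overlap in 29 of 31 genes, against 19.8% of all tested loci. In this comparison 3.65% of all tested loci were called lower and 6.12% higher. In 35S:HSFA1b HS against 35S:HSFA1b NS 25 rose and 0 fell (median 0.46; 28 higher and 0 lower unadjusted), against 22.6% and 19.7% of loci. Quantile normalization called 2 higher (0.17). Genes of ribosome biogenesis process rRNA and assemble the subunits. Of 18 such genes, 3 rose and 4 fell in WT HS (median -0.10), against 23.7% and 20.8% of all tested loci. In 35S:HSFA1b NS against WT NS 1 was higher and 1 lower (-0.29), against 6.12% and 3.65% of loci. In 35S:HSFA1b HS against 35S:HSFA1b NS 8 rose and 0 fell (0.26; 9 higher and 0 lower unadjusted), against 22.6% and 19.7% of loci. Under quantile normalization 1 rose and 7 fell in WT HS (-0.38), and 4 rose and 0 fell in 35S:HSFA1b HS against 35S:HSFA1b NS (0.14). NUC2, a nucleolin gene, had the largest decrease in WT, with 0.730 ± 0.102 FPKM in WT HS and 1.21 ± 0.196 FPKM in WT NS (-0.71 ± 0.255, adjusted p = 0.0488), and passed no longer with length and GC trends taken out (adjusted p = 0.0684). In 35S:HSFA1b HS against WT HS, 3 of these 18 were higher and 1 lower, against 12.1% and 16.8% of loci. Their median was 0.09, against -0.32 for the members. NOP2C, a putative rRNA methyltransferase of this list, was higher with 14.6 ± 1.98 FPKM in 35S:HSFA1b HS, against 8.19 ± 0.411 FPKM in WT HS (0.82 ± 0.126, adjusted p = 0.000823).

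Of 22 translation factors, 4 were higher and 4 lower in WT HS than in WT NS (median 0.05), against 23.7% and 20.8% of all tested loci. In 35S:HSFA1b NS against WT NS, 0 were higher and 4 lower (-0.21; 0 higher and 12 lower at an unadjusted p below 0.05), against 6.12% and 3.65% of loci. Under quantile normalization 0 were higher and 11 lower in WT HS (-0.30). The poly(A)-binding protein gene PAB2 had 226 ± 10.2 FPKM in WT HS and 162 ± 5.78 FPKM in WT NS (0.48 ± 0.092, adjusted p = 0.00359), but did not pass under quantile normalization (0.03, adjusted p = 0.82). The largest decrease was that of eIFiso4G2, of the plant cap-binding complex, with 15.9 ± 1.34 FPKM in WT HS and 23.2 ± 2.20 FPKM in WT NS (-0.55 ± 0.141, adjusted p = 0.0133). TOR is the kinase that couples nutrients to ribosome production. Of 9 genes of its pathway 3 rose and 2 fell in WT HS, against 23.7% and 20.8% of all tested loci. In 35S:HSFA1b HS against 35S:HSFA1b NS 1 rose and 1 fell, against 22.6% and 19.7% of loci. S6K1 and S6K2 encode kinases downstream of TOR that phosphorylate the ribosomal protein RPS6, and S6K1 fell with HS in both genotypes. S6K1 had 68.5 ± 5.29 FPKM in 35S:HSFA1b HS, against 92.5 ± 4.06 FPKM in 35S:HSFA1b NS (-0.44 ± 0.101, adjusted p = 0.00561), and 78.6 ± 9.53 FPKM in WT HS, against 109 ± 9.04 FPKM in WT NS (-0.48 ± 0.106, adjusted p = 0.0068). Its paralog S6K2 rose in WT, with 5.74, 10.45 and 33.6 FPKM in WT HS, against 5.45, 1.60 and 2.28 FPKM in WT NS (2.22 ± 0.628, adjusted p = 0.0201), and did not pass in 35S:HSFA1b (0.29, adjusted p = 0.714). The difference of the S6K2 responses between genotypes did not pass in limma either (-1.92, adjusted p = 0.147). The WT HS columns of S6K2 were far apart. Of the 7 markers of dividing cells, which are known to express ribosomal protein genes strongly, 6 were tested, and they summed to 26.9 to 31.0 FPKM (35S:HSFA1b HS), 29.4 to 33.8 FPKM (35S:HSFA1b NS), 27.4 to 33.7 FPKM (WT HS) and 29.2 to 43.5 FPKM (WT NS), so that the sums overlapped. In WT HS against WT NS, 2 of the 6 were called lower and 0 higher, against 20.8% and 23.7% of all tested loci. In 35S:HSFA1b HS against 35S:HSFA1b NS, 1 was called lower and 0 higher, against 19.7% and 22.6% of loci. Both comparisons gave the same counts at an unadjusted p below 0.05 in limma. CYCB1;2, a cyclin of the entry into mitosis, had 2.72 ± 0.247 FPKM in WT HS and 5.88 ± 1.06 FPKM in WT NS (-1.10 ± 0.177, adjusted p = 0.00155), and 2.48 ± 0.175 FPKM in 35S:HSFA1b HS, against 4.203 ± 0.716 FPKM in 35S:HSFA1b NS (-0.75 ± 0.166, adjusted p = 0.00456). None of these markers was at 0 throughout a group, and their part in the members' values was not tested.

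**Figure D5:**
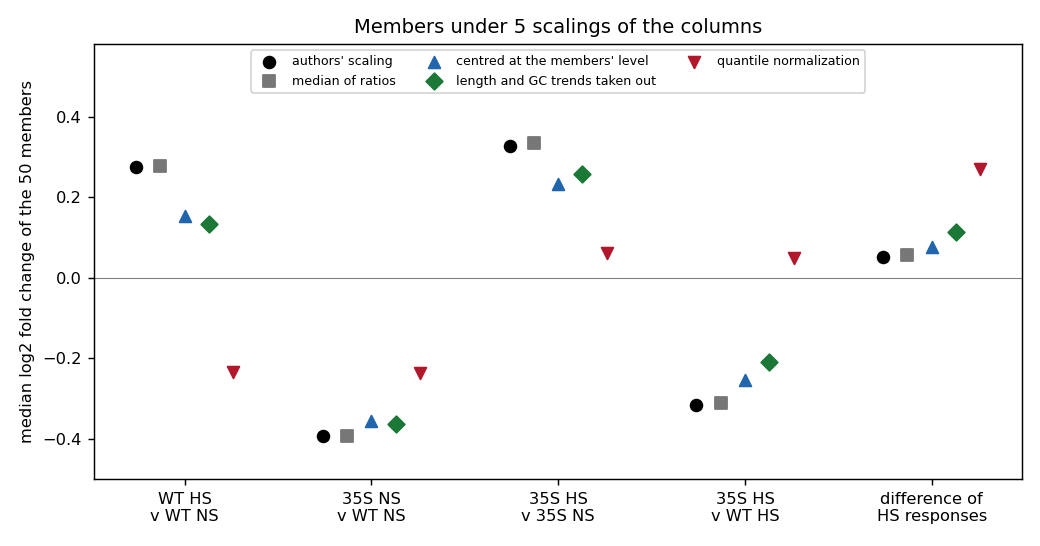
Median log2 fold change of the 50 members in 4 comparisons and in the difference of the HS responses, under 5 scalings of the columns (symbols). The median keeps its sign under all 5 for 35S:HSFA1b NS against WT NS, 35S:HSFA1b HS against 35S:HSFA1b NS and the difference, while quantile normalization turns it to -0.23 for WT HS against WT NS and to 0.05 for 35S:HSFA1b HS against WT HS.

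Some members cannot be measured fully apart from other loci. A transcript of another locus matched 11 members over at least 100 bases at 90% identity or more, and in 7 of these the match was another member, namely within RPL9 (RPL9B and RPL9C, 933 bases at 92.5%), RPL11 and RPS4. For these the division of fragments between paralogs is uncertain, and their shares are therefore too. The match of RPS9B was a locus with a mean of 0.0392 FPKM. A locus on the opposite strand overlapped 10 members, and because the library kit does not mark strand, such reads cannot be told apart. Where the table holds those loci, their means were at most 20.1 FPKM (AT5G27860, opposite RPL18C). RPL3B was overlapped over 16 bases by a locus with a mean of 0.259 FPKM, and RPL9B and RPL9C by a microRNA locus each.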

How the data were processed

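Leaf RNA of 12 libraries was sequenced, and the deposited table holds FPKM per locus, which the authors made with GSNAP, Cufflinks and Cuffdiff (geometric library normalization) on TAIR10. It holds no counts. Its 12 columns were assigned to groups by name, but not to single libraries, and 0 columns were left out. The genotype label reads wild type throughout, so titles were followed. The members and the gene lists were chosen with earlier results of these data known.

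Changes were tested on log2(FPKM + 0.01), which understates changes of low genes, with limma 3.58.1 in R 4.3.3 (intensity trend, two-sided, Benjamini-Hochberg) over loci averaging 1 FPKM or more in the columns fitted, which all 50 members did. The call threshold was an adjusted p of 0.05. Shares of all tested loci were taken at this threshold and for columns without overlap, not at an unadjusted p. WT HS and 35S:HSFA1b NS against WT NS were fitted in 9 columns (17710 loci), the groups that the study's methods name, and comparisons with 35S:HSFA1b HS in 12 (17720 loci). The comparisons share columns. The fit was tested on simulated data.

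Named members were the 4 largest increases and decreases past the threshold in each comparison, the 3 highest and 3 lowest levels, and families that moved in both directions, and from other lists the largest changes in each direction with HS in WT, with some from other comparisons. The highest locus of these lists, also selected by the rule, is not named throughout. Alternatives covered the pseudocount, filter, scaling, trend, fitted groups and each column left out. RefSeq (TAIR10.1) gave positions and promoters. It carries the letter name of 13 members and names 37 by family only. Copies were searched with BLAST+ 2.17.0, and Python 3.11.15 and matplotlib 3.10.9 served for tables and figures.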

Additional observations from a re-analysis of the deposited data

Results flagged for a closer look

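RPL10B was singled out because its HS response differed between the genotypes by the interaction test, with 0.91 ± 0.213 (SE) for 35S:HSFA1b minus WT on the log2 scale (adjusted p = 0.0213). It was the only call among the 50 members, against 3.94% of all tested loci with a higher and 7.97% with a lower response. The members thus held no excess of such calls. The call was also lost without some single columns, as given above. All columns of 35S:HSFA1b HS were above those of 35S:HSFA1b NS, and all columns of WT HS were below those of WT NS. These orderings come from the same values as the interaction test and add nothing to it. RPL10B is among the 3 members with the lowest levels.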

How the results depend on the processing

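Under quantile normalization, the members called were 11 for WT HS against WT NS (1 higher, 10 lower; median -0.23), 2 for 35S:HSFA1b NS against WT NS (median -0.24), 4 for 35S:HSFA1b HS against 35S:HSFA1b NS (median 0.062), 2 for 35S:HSFA1b HS against WT HS (median 0.0497) and 3 for the difference of HS responses (median 0.27). The signs of RPS9B with HS in WT (-0.26), and of RPL10A (0.093) and RPS8A (0.077) between genotypes under HS, were reversed. Centring at the members' level, added after the data were seen, gave 13 calls for HS in WT (median 0.15) and 22 for HS in 35S:HSFA1b (median 0.23). Taking out length and GC trends, also added, gave 9 calls for HS in WT (median 0.13) and 17 for genotype under HS (median -0.21). Column 2 as the only 35S:HSFA1b NS column, likewise added, gave 0 calls for genotype under NS, 17 for HS in 35S:HSFA1b and 0 for the difference (at an unadjusted p below 0.05, 30 lower for genotype under NS, and 3 higher and 3 lower for the difference). The cause was not tested. With each column left out in turn, calls ran from 13 to 26, 1 to 35, 28 to 42, 22 to 38 and 0 to 1 in the same order of comparisons. The pseudocount, filter, trend, median-of-ratios scaling and fitted groups moved no count of members called by more than 1.5 times. The counts of this section stand without the share of all tested loci called under the same setting, so they show no excess over a background. No paired analysis was possible because the columns carry no replicate number of the labels, and the fit with a replicate block was not run.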
